A study of Rattus norvegicus with 4 samples.

Results

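The genes described here move calcium between the cytosol, the endoplasmic reticulum (ER) and the outside of the cell. They are 10 of the 23360 gene symbols in the data, taken from a fixed list of names: the pumps Atp2a2, Atp2a3 and Atp2b1, the release channels Itpr1, Itpr2, Itpr3 and Ryr2, and the store entry genes Stim1, Stim2 and Orai1. Their messenger RNA was measured in INS-1 832/3 cells, a clone of a rat insulinoma line that secretes insulin, carries the human insulin gene and is kept under Geneticin. The study set cells bioprinted in the hydrogel GelXA LAMININK 411 (3D) against the same line grown as a standard monolayer without hydrogel (2D), to learn how culture in the printed gel changes gene expression. Each group held 2 biological replicates, and RNA was taken after 5 days of culture at passage 3. Reads of polyA RNA had been assigned to 31201 transcripts, and the values are abundances corrected for transcript length, given as TPM, which sum to 1000000 in each culture. The paper states a read count per sample, but TPM carry no counts per gene, so the counting error behind a value was not estimated. In bulk RNA, fewer cells that express a gene and less of its RNA per cell cannot be told apart.

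The ER is the main calcium store of a secretory cell. SERCA pumps fill it, IP3 receptors and ryanodine receptors empty it into the cytosol, and STIM proteins in its membrane sense the loss and open ORAI channels in the plasma membrane, which is called store-operated calcium entry. In beta cells, calcium triggers the release of insulin granules, and calcium in the ER is needed for folding proinsulin.

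All 10 genes were above 0 in every culture, over a wide range of levels. In 2D culture the highest mean level was that of Atp2a2 at 253 ± 31.0 TPM (SD, n = 2), and the lowest was that of Itpr2 at 0.298 ± 0.00272 TPM (SD, n = 2). From high to low, the 2D means ran Atp2a2, Atp2a3, Atp2b1, Stim1, Itpr3, Orai1, Itpr1, Stim2, Ryr2 and Itpr2. The values of Itpr3 and Orai1 overlapped, as did those of Itpr1 and Stim2, while the other neighbours did not overlap. In 3D culture the order was the same for the first 5 and the last 2 genes, and Stim2, Itpr1 and Orai1 followed Itpr3. There the values of Itpr1 overlapped with those of Stim2 and of Orai1, while those of Stim2 and Orai1 did not overlap. Orai1 thus stood sixth among the 10 genes in 2D and eighth in 3D culture, where it could not be separated from its neighbour Itpr1.

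**Figure D1:**
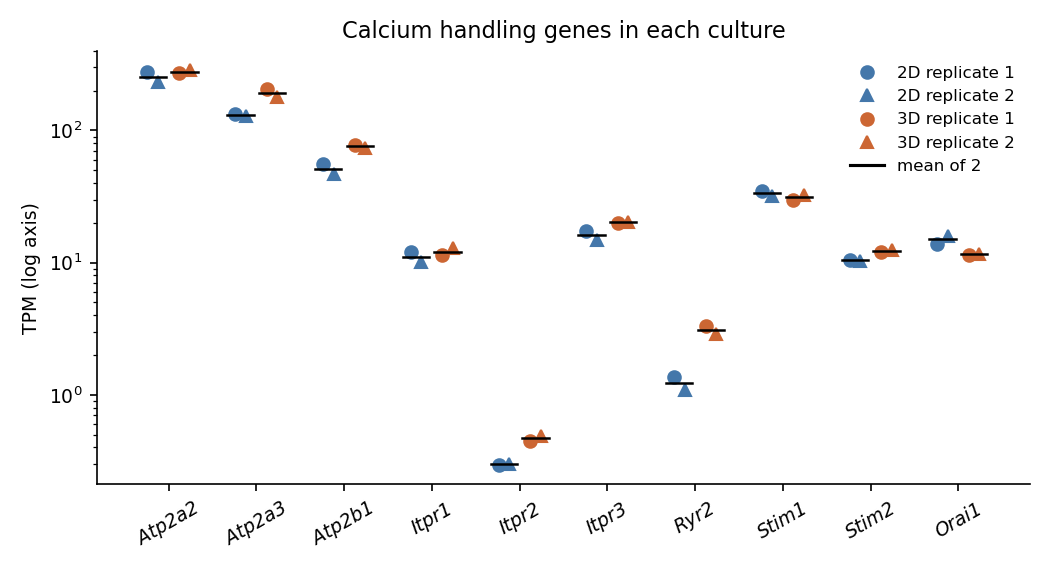
TPM of the 10 calcium handling genes (log axis) in the 4 cultures, with circles for replicate 1, triangles for replicate 2 and a line for the mean of each group. Ryr2 sits between 1.08 and 1.36 TPM in 2D and between 2.87 and 3.29 TPM in 3D culture, while the 2D and 3D values of Atp2a2, Itpr1 and Stim1 overlap.

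Of the 9 genes with a mean of at least 1 TPM, 5 differed between 3D and 2D culture at an adjusted p below 0.05 in limma: Ryr2, Atp2b1, Atp2a3 and Itpr3 were higher in 3D culture and Orai1 was lower. Across all 11960 genes tested, 38.0% passed the same threshold, 18.5% as higher and 19.5% as lower, so differences between the cultures were common. Among the 9 genes 55.6% passed, and whether this share differs from that of all genes was not tested. The balance of directions depended on the scaling: 2209 genes were higher and 2334 lower with scaling, and 2258 and 1812 without it. Limma called fewer of the 9 genes, and fewer of all genes, without 3D replicate 1, 3D replicate 2 or 2D replicate 2. Both counts were lowest without 3D replicate 1. The median log2 fold change of the 9 genes was 0.17, beside a median of -0.0035 over all genes tested. The deposited TPM of 2D and 3D culture did not overlap for 7 of the 10 genes, or 6 of the 9 tested, where 74.2% of all genes tested did not overlap. A two-sided exact permutation test on 2 samples a group reaches p = 0.33 at the least, so the calls rely on limma pooling the spread over genes. Fold changes are on the scale of log2(TPM + 1), which understates the change of genes near or under 1 TPM, such as Ryr2.

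**Figure D2:**
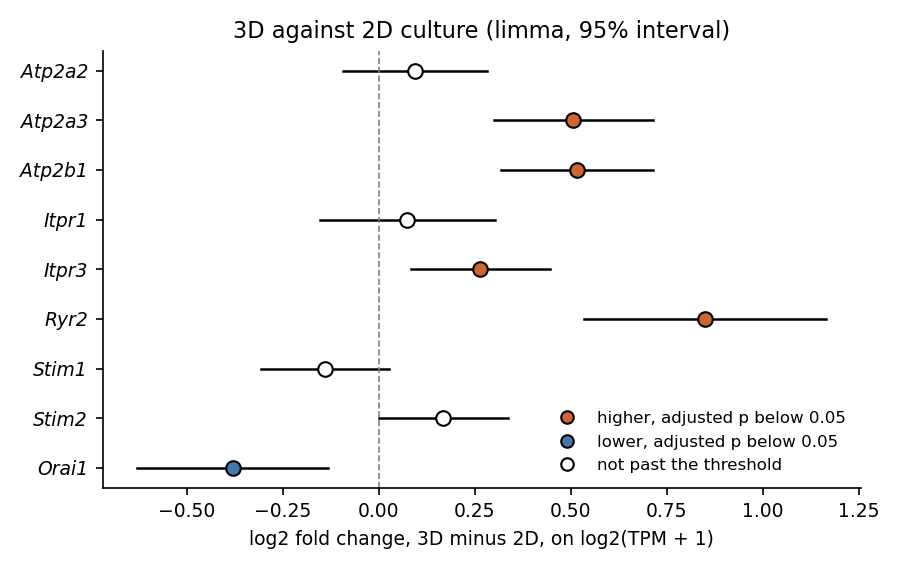
Log2 fold changes of the 9 tested genes, 3D minus 2D culture, on log2(TPM + 1), with 95% intervals from limma. Filled points passed an adjusted p of 0.05, with Ryr2 highest at 0.85 and Orai1 lowest at -0.38, and the intervals of Atp2a2, Itpr1, Stim1 and Stim2 reach 0.

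Promoter sequences were found for all 10 genes in the RefSeq table of build GRCr8, each 300 bases long and lying mostly before the start of the gene. Those of the 5 genes that differed are given 5′ to 3′ on the strand of the gene, since 4 of them rose together and 1 fell. Capitals mark 3 short motifs searched on both strands: ACGTG, the core of the hypoxia response element, GGAAA, the core of NFAT sites, and CCACG, a part of the ER stress element.
Atp2a3 promoter, chr10:58080402-58080701, plus strand: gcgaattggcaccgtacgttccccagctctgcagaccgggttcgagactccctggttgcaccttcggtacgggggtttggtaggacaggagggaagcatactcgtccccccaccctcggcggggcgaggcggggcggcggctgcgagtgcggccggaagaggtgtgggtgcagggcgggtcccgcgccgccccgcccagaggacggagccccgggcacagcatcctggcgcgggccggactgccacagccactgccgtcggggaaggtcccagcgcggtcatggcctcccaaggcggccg
Atp2b1 promoter, chr7:35622211-35622510, plus strand: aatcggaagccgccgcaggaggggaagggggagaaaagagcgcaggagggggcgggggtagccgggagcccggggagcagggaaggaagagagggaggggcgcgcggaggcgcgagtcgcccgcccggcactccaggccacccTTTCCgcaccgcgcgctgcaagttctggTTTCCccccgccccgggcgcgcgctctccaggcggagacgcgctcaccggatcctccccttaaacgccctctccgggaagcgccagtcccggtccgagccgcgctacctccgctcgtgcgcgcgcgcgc
Itpr3 promoter, chr20:5138562-5138861, plus strand: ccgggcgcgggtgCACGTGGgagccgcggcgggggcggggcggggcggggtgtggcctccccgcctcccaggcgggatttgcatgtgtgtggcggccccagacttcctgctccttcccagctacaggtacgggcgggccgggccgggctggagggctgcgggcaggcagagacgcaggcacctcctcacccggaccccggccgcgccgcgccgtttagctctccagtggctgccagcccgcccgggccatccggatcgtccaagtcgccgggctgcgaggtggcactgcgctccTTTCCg
Ryr2 promoter, chr17:63081277-63081576, plus strand: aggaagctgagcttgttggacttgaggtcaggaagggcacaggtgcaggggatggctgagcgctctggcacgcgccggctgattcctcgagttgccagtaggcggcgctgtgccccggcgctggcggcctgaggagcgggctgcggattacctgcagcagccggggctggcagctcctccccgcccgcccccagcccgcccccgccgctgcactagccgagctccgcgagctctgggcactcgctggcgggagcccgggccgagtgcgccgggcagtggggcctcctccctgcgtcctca
Orai1 promoter, chr12:39208981-39209280, minus strand: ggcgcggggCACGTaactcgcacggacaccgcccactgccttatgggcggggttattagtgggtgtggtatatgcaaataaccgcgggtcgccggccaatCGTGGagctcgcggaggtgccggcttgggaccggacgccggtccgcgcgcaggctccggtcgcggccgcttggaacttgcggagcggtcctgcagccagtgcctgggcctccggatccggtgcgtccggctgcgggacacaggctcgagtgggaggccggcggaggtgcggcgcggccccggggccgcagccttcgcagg
The promoters of Atp2a3 and Ryr2 held none of the 3 motifs in this window. That of Atp2b1 held GGAAA at 2 places, as its reverse complement. The Itpr3 promoter held all 3 motifs, with ACGTG read on both strands and CCACG overlapping in the same 7 bases, and the Orai1 promoter held ACGTG and CCACG at separate places. Among the 10 promoters, ACGTG was in 2, GGAAA in 4 and CCACG in 5. Over all 33469 promoters of 300 bases, the shares were 19.3%, 62.7% and 31.6%. G and C made up between 62.0% and 79.0% of the bases in the 10 promoters, and the median over all promoters was 51.7%. A match of so few letters is a description of the sequence and no evidence of binding.

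Pumps came first in abundance. Atp2a3 encodes SERCA3, a pump of the ER membrane with a lower affinity for calcium than SERCA2. It had 133 and 129 TPM in the 2D cultures and 206 and 180 TPM in the 3D cultures. Both 3D values lay above both 2D values, and the gap between the groups was larger than the spread within either. The mean rose from 131 ± 2.81 to 193 ± 18.6 TPM (SD, n = 2 each), a ratio of 1.47. The log2 fold change was 0.51 (SE 0.083, limma adjusted p = 0.00998), and it was 0.40 (limma adjusted p = 0.0730) without 3D replicate 1.

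Atp2b1 encodes PMCA1, which carries calcium out across the plasma membrane and so lowers cytosolic calcium without filling the ER. Its level was 55.9 and 46.8 TPM in 2D and 77.6 and 74.2 TPM in 3D culture. The 3D cultures were again both above the 2D cultures and close to each other. The log2 fold change was 0.52 (SE 0.079, limma adjusted p = 0.00873), at a ratio of the mean TPM of 1.48. Without 3D replicate 1 the adjusted p was 0.0836 and without 3D replicate 2 it was 0.0533, with log2 fold changes of 0.47 and 0.56.

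Atp2a2 encodes SERCA2, the pump found in the ER of nearly all cell types. It had 275 and 231 TPM in 2D and 270 and 284 TPM in 3D culture. One 2D value lay between the 3D values, so the groups overlapped. The log2 fold change of 0.095 had a 95% interval from -0.092 to 0.28 and an adjusted p of 0.347 in limma. It was 0.18 without 2D replicate 1, 0.0046 without 2D replicate 2 and 0.25 by the most abundant transcript of the gene, none of them past the threshold. SERCA3 took a larger part of the summed TPM of the SERCA genes, with 32.6% and 35.8% in 2D and 43.2% and 38.7% in 3D culture. The shares did not overlap, and the exact permutation test gave p = 0.33, the smallest it can give with 2 cultures against 2. The difference in share was 6.73 percentage points, and 4.47 without 3D replicate 1. Atp2a1 was not used here, so the sum is of Atp2a2 and Atp2a3.

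Ryr2 encodes the ryanodine receptor of heart muscle and brain, a very large channel that opens when cytosolic calcium rises. Its TPM were 1.36 and 1.08 in 2D and 3.29 and 2.87 in 3D culture. All values were low, and both 3D values were more than double the higher of the 2D values. The mean went from 1.22 ± 0.201 to 3.08 ± 0.296 TPM (SD, n = 2 each), a ratio of 2.52. The log2 fold change of 0.85 (SE 0.13, limma adjusted p = 0.00813) was the largest among the 9 tested genes, and with a pseudocount of 0.1 in place of 1 it was 1.23. By the most abundant transcript of Ryr2 alone it was 0.56, close to the 0.55 of Atp2a3 taken the same way. Without 3D replicate 1 the value from the summed transcripts was 0.77, with an adjusted p of 0.0694 in limma.

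Because Ryr2 is best known from muscle, 6 genes of striated muscle were read out beside it. Their summed level was 1.60 and 1.64 TPM in 2D and 4.54 and 3.42 TPM in 3D culture. Nearly all of it was Actn2, an actin crosslinking protein, which had 1.54 and 1.55 TPM in 2D and 4.44 and 3.34 TPM in 3D culture and rose in limma (log2 fold change 0.90, limma adjusted p = 0.00950), but not without 3D replicate 1 (0.0664). The other 5 genes were each at most 0.0856 TPM in every culture, and Myh6, the myosin heavy chain of the heart atrium, was at 0 in all 4 cultures. Actn2 and Ryr2 were thus both called higher, as were 18.5% of all genes tested, and any link between them was not tested.

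The genes whose values moved most like those of Ryr2 over the 4 cultures, among genes with a mean of at least 10 TPM, were Shank1, LOC498759 and Arid3a. Likeness was the Euclidean distance between log2(TPM + 1) values centred on the 2D mean, which was 0.0374 for Shank1, 0.0696 for LOC498759 and 0.0708 for Arid3a. Shank1, a scaffold protein of the synapse, had 16.6 and 14.7 TPM in 2D and 31.8 and 28.1 TPM in 3D culture. Arid3a, a DNA-binding protein, had 10.4 and 9.04 TPM in 2D and 19.8 and 18.8 TPM in 3D culture. The likeness holds on log2(TPM + 1), which understates the change of Ryr2. The ratio of mean TPM was 2.52 for Ryr2, 1.91 for Shank1, 1.84 for LOC498759 and 1.98 for Arid3a.

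IP3 receptors open when IP3 made at the plasma membrane reaches the ER. Itpr3 was the most abundant of them, with 17.4 and 15.0 TPM in 2D and 19.9 and 20.4 TPM in 3D culture. The 3D values were higher than both 2D values by a margin similar to the gap between the 2D replicates. The log2 fold change was 0.26 (SE 0.072, limma adjusted p = 0.0373). This call was near the threshold: the adjusted p in limma was 0.0505 without scaling between samples, 0.0663 without the filter on low values and 0.0507 without the intensity trend. It was also lost without 2D replicate 2 (0.0912), 3D replicate 1 (0.177) or 3D replicate 2 (0.171), with log2 fold changes from 0.19 to 0.27.

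Itpr1, the main type in neurons, had 12.0 and 10.1 TPM in 2D and 11.3 and 12.8 TPM in 3D culture. These values overlapped, with a log2 fold change of 0.075 (95% interval -0.15 to 0.30, limma adjusted p = 0.541). It was 0.15 without 2D replicate 1 or without 3D replicate 1, -0.0063 without 2D replicate 2 and 0.0054 without 3D replicate 2. Itpr2 was listed at 0.296 and 0.300 TPM in 2D and 0.448 and 0.491 TPM in 3D culture. At this level it fell below the filter and was not tested. Without the filter its log2 fold change was 0.17, with an adjusted p of 0.0686 in limma.

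Within the summed TPM of the 3 receptor genes, Itpr3 took 58.5% and 58.9% in 2D and 62.8% and 60.6% in 3D culture. Itpr1 took 40.5% and 39.9% in 2D and 35.7% and 38.0% in 3D culture, and Itpr2 stayed between 0.996% and 1.46%. None of the 3 shares overlapped between the groups, each at p = 0.33 in the exact permutation test, the smallest it can give here. The shares of a culture add up to the whole, so the fall of Itpr1 and the rise of Itpr3 are not separate results. The differences in share were 3.00 percentage points for Itpr3 and -3.35 for Itpr1, and without 3D replicate 1 they were 1.86 and -2.23.

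Store entry starts with STIM1, a sensor of ER calcium that gathers near the plasma membrane when the store is empty. Stim1 had 35.1 and 31.9 TPM in 2D and 29.8 and 32.7 TPM in 3D culture. The groups overlapped, and the log2 fold change was -0.14 (95% interval -0.31 to 0.027, limma adjusted p = 0.148), or -0.085 without 3D replicate 1. Stim2, whose product responds to smaller losses of ER calcium, had 10.5 and 10.4 TPM in 2D and 12.0 and 12.4 TPM in 3D culture. Its replicates lay close together and the groups did not overlap, yet the log2 fold change of 0.17 did not pass the threshold (SE 0.068, limma adjusted p = 0.0991). The share of Stim2 in the summed TPM of both genes was 23.0% and 24.5% in 2D and 28.8% and 27.5% in 3D culture, without overlap (p = 0.33 in the exact permutation test). The difference in share was 4.36 percentage points, and 10.4 by the most abundant transcripts.

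Orai1 encodes the pore of the store-operated channel in the plasma membrane. It had 13.9 and 16.0 TPM in 2D and 11.5 and 11.7 TPM in 3D culture. The 3D replicates were nearly equal, and both were lower than either 2D replicate. The mean went from 15.0 ± 1.45 to 11.6 ± 0.177 TPM (SD, n = 2 each). Orai1 fell by 0.38 on the log2 scale (SE 0.100, limma adjusted p = 0.0329), the only one of the 9 tested genes that was significantly lower in 3D culture, with either scaling and without scaling. The adjusted p in limma was 0.0737 without the filter on low values, 0.0660 without 2D replicate 2, 0.165 without 3D replicate 1 and 0.142 without 3D replicate 2. The log2 fold change without 2D replicate 2 was -0.26.

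Orai2, a channel of the same family from the list of other store entry genes, moved the other way. It had 13.7 and 12.0 TPM in 2D and 20.0 and 19.1 TPM in 3D culture, for a log2 fold change of 0.53 (limma adjusted p = 0.00709). Orai3 had 10.7 and 12.1 TPM in 2D and 11.5 and 12.1 TPM in 3D culture, with overlapping groups and an adjusted p of 0.947 in limma. Of the summed TPM of the ORAI genes, Orai1 took 36.4% and 39.9% in 2D and 26.7% and 27.3% in 3D culture, while Orai2 took 35.6% and 29.9% in 2D and 46.5% and 44.4% in 3D culture. This sum was 38.3 and 40.0 TPM in 2D and 43.0 and 42.9 TPM in 3D culture. The ORAI shares were chosen for display after the values were seen and were not tested.

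**Figure D3:**
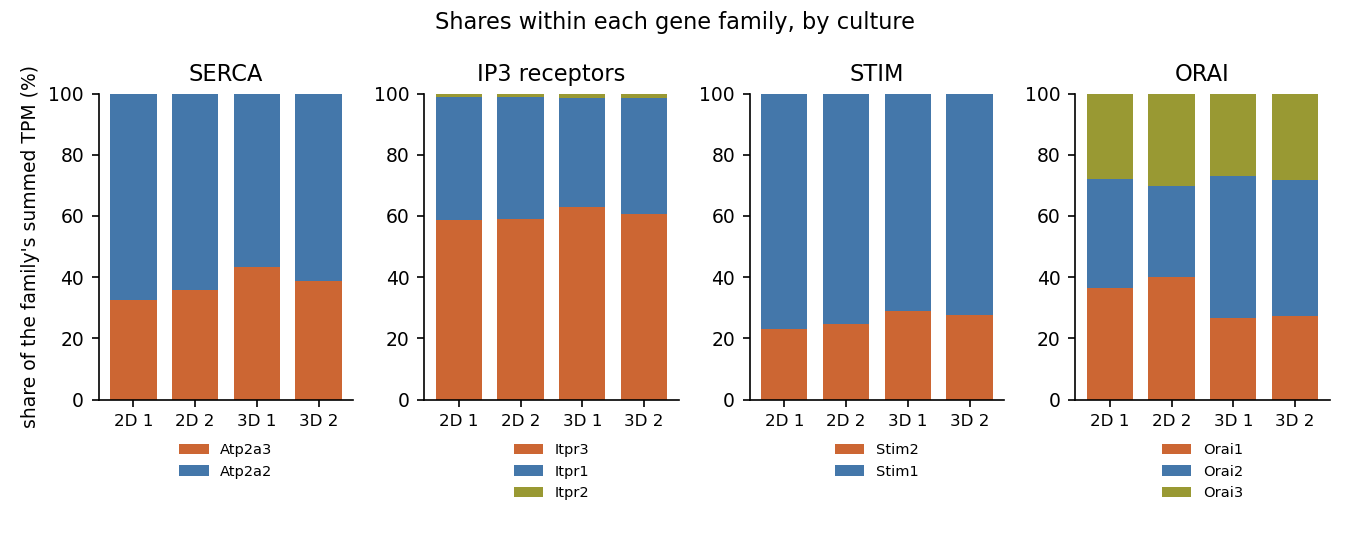
Share of each gene in the summed TPM of its family (percent) for the 4 cultures, with 1 bar per culture. The Orai1 segment shrinks from 36.4% and 39.9% in 2D to 26.7% and 27.3% in 3D culture, and the Atp2a3 segment is larger in both 3D cultures than in both 2D cultures.

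The 10 genes were listed with 23 transcripts, of which 14 had a mean of at least 1 TPM. In a fit of all 15020 transcripts that passed this filter, 3 of the 14 differed at an adjusted p below 0.05 in limma, all higher in 3D culture, where 23.1% of all transcripts tested passed. They were ENSRNOT00000064840.3 of Atp2a3, ENSRNOT00000041354.4 of Atp2b1 and ENSRNOT00000092882.1 of Stim1. Salmon divides reads that fit several transcripts of a gene between them by estimation, so values of transcripts are less certain than those of genes. Without 2D replicate 2, 3D replicate 1 or 3D replicate 2, none of the 3 passed, with adjusted p from 0.0626 to 0.176 in limma, and without 2D replicate 1 that of Atp2a3 had an adjusted p of 0.0595. Without 2D replicate 1, ENSRNOT00000001738.7 of Atp2a2, ENSRNOT00000066174.2 of Atp2b1, ENSRNOT00000088370.1 of Stim1 and the Orai1 transcript also passed (limma adjusted p from 0.0360 to 0.0490).

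In Stim1, 1 transcript was called while the sum of the gene was not. Transcript ENSRNOT00000092882.1 had 3.34 and 2.27 TPM in 2D and 5.47 and 5.98 TPM in 3D culture. Its log2 fold change was 0.80 (SE 0.16, limma adjusted p = 0.0332), and its share of Stim1 went from 9.52% and 7.12% to 18.4% and 18.3%. The shares of transcripts were not tested, and the call of this one was lost without 2D replicate 2, 3D replicate 1 or 3D replicate 2 (limma adjusted p = 0.0749, 0.176 and 0.163). The most abundant Stim1 transcript, ENSRNOT00000088370.1, had 17.4 and 19.5 TPM in 2D and 13.2 and 14.8 TPM in 3D culture. Both 3D values were below both 2D values, with a log2 fold change of -0.41 and an adjusted p of 0.0554 in limma. Taken alone as the value of Stim1 in the fit of genes, it passed the threshold (limma adjusted p = 0.0328). The remaining abundant transcript, ENSRNOT00000027685.5, overlapped between the groups, with 14.2 and 9.95 TPM in 2D and 10.9 and 11.6 TPM in 3D culture.

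Atp2a2 was split almost evenly between 2 transcripts. ENSRNOT00000001738.7 took 48.2% and 46.7% of the gene in 2D and 52.9% and 52.9% in 3D culture, and ENSRNOT00000024347.7 took the rest. Neither passed the test, with adjusted p of 0.104 and 0.505 in limma. For Atp2a3, ENSRNOT00000064840.3 held between 80.7% and 83.5% of the gene in the 4 cultures, so the rise of the gene was mostly that of this transcript, which went from 108 and 104 TPM to 171 and 150 TPM. ENSRNOT00000087723.1, the other abundant Atp2a3 transcript, had 24.3 and 24.8 TPM in 2D and 33.1 and 28.6 TPM in 3D culture (limma adjusted p = 0.108).

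Both Atp2b1 transcripts were higher in the 3D cultures than in the 2D cultures. ENSRNOT00000041354.4 had 39.7 and 35.7 TPM in 2D and 53.7 and 52.9 TPM in 3D culture (log2 fold change 0.45, limma adjusted p = 0.0189). ENSRNOT00000066174.2 had 16.2 and 11.1 TPM in 2D and 23.9 and 21.4 TPM in 3D culture, and its log2 fold change of 0.67 did not pass (limma adjusted p = 0.0544) and was 0.44 without 2D replicate 2. Ryr2 was listed with 2 transcripts. ENSRNOT00000023601.7, the more abundant, had 0.928 and 1.08 TPM in 2D and 2.03 and 1.97 TPM in 3D culture, with an adjusted p of 0.0677 in limma. ENSRNOT00000067949.3 was at 0.436 TPM and at 0 in the 2D cultures and at 1.26 and 0.901 TPM in the 3D cultures, below the filter. Itpr1 rested on ENSRNOT00000043646.4, which held between 82.4% and 93.3% of the gene. Itpr2, Itpr3, Stim2 and Orai1 had 1 transcript each. In the fit of transcripts those of Itpr3 and Orai1 did not pass (limma adjusted p = 0.0663 and 0.0660).

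**Figure D4:**
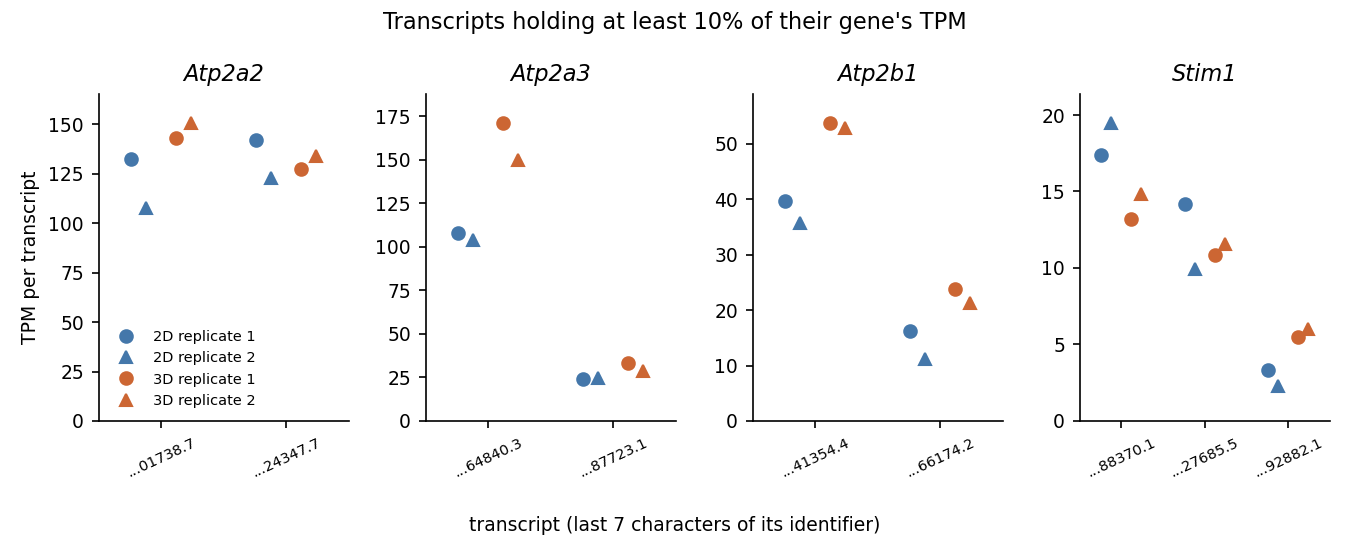
TPM per transcript for Atp2a2, Atp2a3, Atp2b1 and Stim1 in the 4 cultures, showing transcripts with a mean share of at least 10% of their gene, with circles for replicate 1 and triangles for replicate 2. In Stim1 the most abundant transcript is lower in 3D culture (13.2 and 14.8 TPM) than in 2D culture (17.4 and 19.5 TPM), and the least abundant of the 3 is higher (5.47 and 5.98 against 3.34 and 2.27 TPM).

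Around these genes, 7 lists with 90 other genes of calcium handling were read out of the same fit. Of the 72 genes that passed the filter, 13 rose and 14 fell in the 3D cultures, which is 37.5% and close to the 38.0% of all genes. In single lists the share called ran from 20% to 50%, and whether any list differs from all genes was not tested. The median log2 fold change over the lists was 0.00060. None of the 27 changed direction under any alternative for the scaling, filter, pseudocount, trend, block or left-out culture. Without the filter on low values, 12 of the 27 missed the threshold (limma adjusted p from 0.0512 to 0.0940): Slc8a2, Tpcn1, Fkbp1b, Wfs1, Calm2, Esyt1, Trpc1, Gnaq, Plcb1, Impa2, Pdia4 and Mcu. Without the intensity trend, 5 missed it (0.0524 to 0.0659): Fkbp1a, Calm2, Esyt1, Gnaq and Plcb1. By the most abundant transcript of each gene, Slc8a1 and Vdac2 were gained (limma adjusted p = 0.0431 and 0.0389), and calls lost this way were not counted. With 1 culture left out, of the 27, 21 were called without 2D replicate 1, 13 without 2D replicate 2, 1 (Trpc4) without 3D replicate 1 and 7 without 3D replicate 2. Without 2D replicate 1, Slc8a1, Canx, Micu3 and Vdac2 passed as well (limma adjusted p from 0.0214 to 0.0450).

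Among other pumps and exchangers, 2 of 10 genes tested rose, none fell, and the median log2 fold change was 0.097. Slc24a2, a potassium-dependent sodium-calcium exchanger of the plasma membrane, had 8.81 and 6.82 TPM in 2D and 16.4 and 17.7 TPM in 3D culture, for a log2 fold change of 1.00 (limma adjusted p = 0.00458). Slc8a2, the sodium-calcium exchanger NCX2, had 42.1 and 35.9 TPM in 2D and 56.5 and 50.2 TPM in 3D culture, for a log2 fold change of 0.40 (limma adjusted p = 0.0214). The other PMCA genes, Atp2b2, Atp2b3 and Atp2b4, did not pass the threshold, so of the 4 PMCA genes only Atp2b1 was called, in limma and with either scaling between samples as well as without scaling. Its share of their summed TPM, looked at after the values were seen and not tested, was 57.0% and 55.5% in 2D and 65.5% and 63.1% in 3D culture.

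Other release channels gave 1 rise and 2 falls among 6 genes tested, with a median of 0.089. Tpcn1 and Tpcn2, channels of endosomes and lysosomes, moved apart. Tpcn1 had 46.6 and 47.9 TPM in 2D and 31.2 and 38.7 TPM in 3D culture (log2 fold change -0.47, limma adjusted p = 0.0214). Tpcn2 had 2.01 and 2.08 TPM in 2D and 3.08 and 3.28 TPM in 3D culture (log2 fold change 0.42, limma adjusted p = 0.0282). With 1 culture left out, the log2 fold change ran from -0.61 to -0.33 for Tpcn1 and from 0.38 to 0.47 for Tpcn2. Tmco1, which lets calcium leak from an overfilled ER, fell by 0.33 on the log2 scale (limma adjusted p = 0.0147). The other ryanodine receptors were below the filter and not tested. Ryr1 had 0.351 and 0.383 TPM in 2D and 0.605 and 0.626 TPM in 3D culture. Ryr3 had 0.0890 and 0.104 TPM in 2D and 0.249 and 0.190 TPM in 3D culture. Like Ryr2, both were higher in both 3D cultures, and the 2D and 3D values of 74.2% of all genes tested did not overlap either.

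Regulators of SERCA pumps, IP3 receptors and ryanodine receptors gave 1 rise and 4 falls among 14 tested, with a median of -0.11. Fkbp1b, the immunophilin that binds RYR2, had 5.08 and 4.95 TPM in 2D and 2.12 and 3.43 TPM in 3D culture. It was lower in both 3D cultures, opposite in direction to Ryr2, with a log2 fold change of -0.73 (limma adjusted p = 0.0251), or -0.48 without 3D replicate 1. Wfs1, an ER membrane protein mutated in Wolfram syndrome, fell by 0.33 on the log2 scale (limma adjusted p = 0.0274). Calm2, a calmodulin gene, fell by 0.23 (limma adjusted p = 0.0467), but its adjusted p was 0.0508 with median of ratios scaling and 0.0814 with the replicate number as a block. Fkbp1a, a relative of Fkbp1b, fell by 0.20 (limma adjusted p = 0.0310), with an adjusted p of 0.0503 without scaling and 0.0568 with the block. Cisd2, another ER membrane protein tied to Wolfram syndrome, rose by 0.23 (limma adjusted p = 0.0279). Pln and Sln, the small inhibitors of SERCA in muscle, were at or near 0.

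Of the other store entry genes, 3 rose and 1 fell among 8 tested, with a median of 0.036. Trpc4, a cation channel of the plasma membrane that opens downstream of phospholipase C, had 5.49 and 6.01 TPM in 2D and 16.7 and 17.5 TPM in 3D culture. This was the widest gap in the 7 lists, a log2 fold change of 1.38 (limma adjusted p = 0.00345), and it held without each culture in turn. Trpc1, a channel of the same family, rose by 0.30 (limma adjusted p = 0.0278). Esyt1, a tether between the ER and the plasma membrane, fell by 0.30 (limma adjusted p = 0.0403), with an adjusted p of 0.0943 without scaling between samples and a log2 fold change of -0.20 without 3D replicate 1. Saraf, which switches STIM1 off after the store is refilled, had 132 and 124 TPM in 2D and 134 and 141 TPM in 3D culture and was not called.

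Genes that make or break down IP3 gave 4 rises and 2 falls among 12 tested, with a median of 0.056. Itpkb, a kinase that phosphorylates IP3, had 9.63 and 8.50 TPM in 2D and 14.0 and 14.7 TPM in 3D culture (log2 fold change 0.57, limma adjusted p = 0.00597). Plcb4 and Plcb1, phospholipases that produce IP3, rose by 0.47 and 0.42 (limma adjusted p = 0.00694 and 0.0418), and Plcb1 had an adjusted p of 0.0533 without scaling. Gnaq, the G protein subunit that activates these phospholipases, rose by 0.37 (limma adjusted p = 0.0322). Without 2D replicate 2 the log2 fold changes were 0.23 for Gnaq and 0.27 for Plcb1. Impa1 and Impa2, which recycle inositol from its phosphates, fell by 0.47 and 0.24 (limma adjusted p = 0.0108 and 0.0364), and Impa2 had an adjusted p of 0.0946 without scaling and 0.0508 with the block.

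Calcium-binding chaperones of the ER gave no rise and 2 falls among 10 tested, with a median of -0.034. Hspa5, the chaperone BiP, had 1219 and 1099 TPM in 2D and 858 and 952 TPM in 3D culture, and fell by 0.40 on the log2 scale (limma adjusted p = 0.0125). Pdia4, a disulfide isomerase, fell by 0.39 (limma adjusted p = 0.0298), with an adjusted p of 0.0592 without scaling and a log2 fold change of -0.25 without 3D replicate 1. Rcn3, a reticulocalbin, had 4.15 and 3.97 TPM in 2D and 5.13 and 6.86 TPM in 3D culture. Its log2 fold change of 0.42 did not pass (limma adjusted p = 0.0529), but did with the replicate block (0.0292) and with a pseudocount of 0.1 (0.0498), and was 0.25 without 3D replicate 2. Mitochondrial uptake and release gave 2 rises and 3 falls among 12 tested, with a median of -0.026. Smdt1, a small subunit of the uniporter, had 594 and 679 TPM in 2D and 423 and 432 TPM in 3D culture (log2 fold change -0.62, limma adjusted p = 0.00903). Mcu, the pore of the uniporter, and Hspa9, a mitochondrial chaperone, rose by 0.37 and 0.31 (limma adjusted p = 0.0286 and 0.0134), while Micu2, its regulator, and Vdac3, a channel of the outer membrane, fell by 0.35 and 0.37 (limma adjusted p = 0.0199 and 0.0106).

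**Figure D5:**
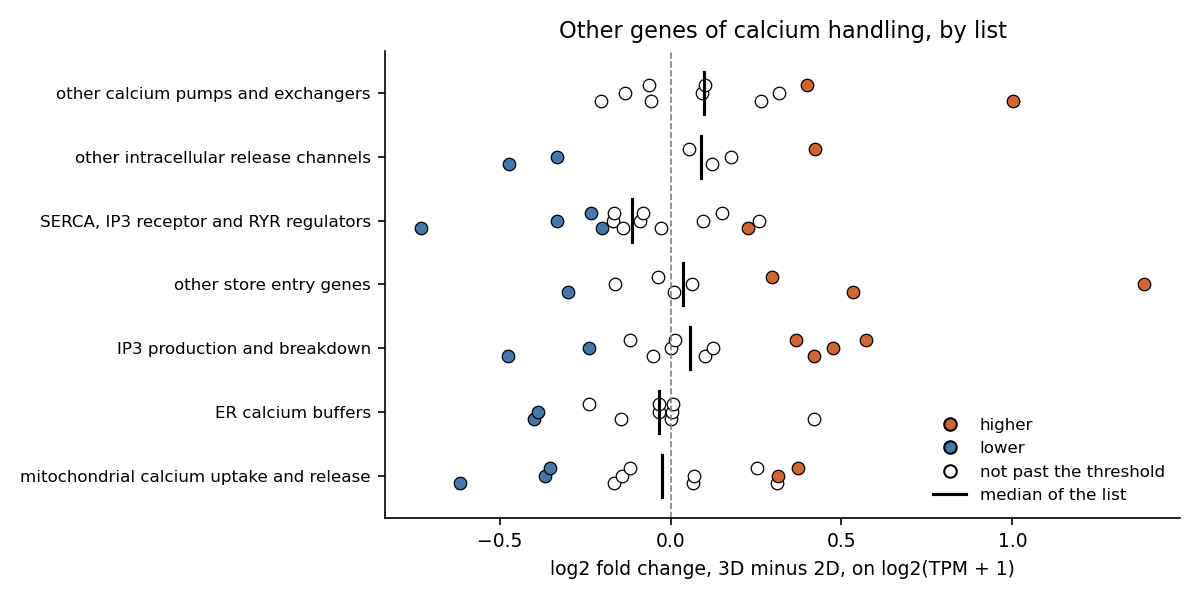
Log2 fold changes, 3D minus 2D culture on log2(TPM + 1), of the 72 tested genes in the 7 lists, with 1 point per gene, filled where the adjusted p in limma was below 0.05, and a bar for the median of each list. Trpc4 at 1.38 and Slc24a2 at 1.00 are the points farthest to the right, and Fkbp1b at -0.73 and Smdt1 at -0.62 those farthest to the left.

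The cells carried the markers of their labelled type. Summed TPM of 9 beta-cell markers was 147227 and 160189 in 2D and 157452 and 170115 in 3D culture, most of it Ins1. Within it Ins2 fell, from 13237 and 13340 TPM in 2D to 8957 and 9326 TPM in 3D culture (limma adjusted p = 0.00945). By its own test on counts, the paper reports that insulin gene expression did not change significantly. Slc2a2, the glucose transporter GLUT2, rose from 491 and 454 TPM in 2D to 626 and 654 TPM in 3D culture (limma adjusted p = 0.00748). Both calls were lost without 3D replicate 1 (0.107 for Ins2 and 0.0760 for Slc2a2) or 3D replicate 2 (0.0737 and 0.0656), and that of Ins2 also without the filter on low values (0.0890). The other 7 beta-cell markers did not pass, and of them Iapp passed without scaling (0.0352), Pdx1 without scaling (0.0478), with a filter at a mean of 5 TPM (0.0431), with the replicate block (0.0432) or without 2D replicate 1 (0.0189), and Pcsk1 with the block (0.0453) or without 3D replicate 2 (0.0445). Among alpha-cell markers, Gcg, which encodes glucagon, had 41.9 and 73.8 TPM in 2D and 124 and 155 TPM in 3D culture and was higher in limma (log2 fold change 1.26, limma adjusted p = 0.0217). It was 0.82 without 2D replicate 1, and the call was lost without the filter (0.0636), 3D replicate 1 (0.0959) or 3D replicate 2 (0.117). Irx1 and Irx2, transcription factors of alpha cells, were at 0 in all cultures. The acinar list summed to at most 0.0334 TPM, with Cpa1, Prss1 and Cela1 at 0, and the delta-cell list to at most 0.235 TPM, with Hhex at 0. The fibroblast list summed to between 1.89 and 2.34 TPM, nearly all Pdgfra with Dcn and Lum at 0. The endothelial list summed to between 1.08 and 1.68 TPM, most of it Kdr with Cdh5 at 0, and the immune list to between 0.516 and 1.47 TPM, most of it Cd68 with Ptprc at 0. At these low levels, the sum of each of these 5 lists was higher in both 3D cultures than in both 2D cultures, and the sums were not tested. Of the genes in these 5 lists, only Pdgfra and Kdr were above the filter and tested, and neither passed the threshold.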

How the data were processed

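RNA of 4 cultures was sequenced as stranded libraries with single-end reads. Per the labels and the methods, the authors checked reads with FastQC 0.11.8 and quantified transcripts with Salmon 1.2 against an rn4 reference to which the human insulin gene was added. The deposited TPM, written with decimal commas, were read as numbers and summed per gene symbol. Each of the 4 samples summed to 1000000, and no pair shared an identical value above 0.

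A gene entered the fit if its TPM averaged 1 or more. Scaling factors between samples (0.960 to 1.02) were trimmed means of M values without weights, trimming 30% of M and 5% of A. The test was that of limma 3.58.1 in R 4.3.3 on log2(TPM + 1), using empirical Bayes with a trend on intensity, with Benjamini-Hochberg adjustment over the 11960 genes, without covariates. Transcripts were tested likewise over 15020 transcripts, with the same factors. Shares were compared with the exact two-sided permutation test of scipy 1.17.1. The steps were run on simulated data in which few genes changed, which does not check the calls where changes are as common as here. The study's count test was not repeated, since TPM are not counts.

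The members and lists were chosen with earlier results of these data known. Named were all 10 genes, in each list up to 4 called genes with the largest absolute log2 fold change (2 most abundant genes where fewer than 2 were called), the 3 genes most like the member with the largest called change, and transcripts holding at least 10% of their gene. Fkbp1a, Gnaq, Impa2, Hspa9, Orai3, Saraf, Rcn3, Slc8a1, Canx, Micu3, Vdac2, Pln, Sln, the other PMCA genes and the other ryanodine receptors were named after their values were seen. Atp2a1, Calm3 and Efcab4b, and the markers Amy2a3, Col1a2 and Pecam1, were not used here, and 1 marker is not reported here. Stimate was matched as Tmem110 through the GRCr8 RefSeq table, used for names and promoters alone. Coordinates are of GRCr8, not of the build used for quantification. Alternatives were the scaling, the filter, the pseudocount, the trend, the threshold, the replicate block, the most abundant transcript and each culture left out in turn.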

Additional observations from a re-analysis of the deposited data

How the results depend on the processing

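Precision was that of 2 cultures per group. Across the alternatives, Ryr2, Atp2b1, Atp2a3, Itpr3 and Orai1 kept their direction. Ryr2, Atp2b1 and Atp2a3 stayed past the threshold in each one that used all 4 cultures, except that Ryr2 had no value with a filter at a mean of 5 TPM. Of the 10 genes, 3 were called without the filter on low values, where 3588 of all 16749 genes were called. At an adjusted p below 0.01 in limma, 3 of the 10 genes and 1436 of all genes were called. With 1 culture left out, the lone sample is assumed to vary like the other group and fewer samples give the spread: between 0 and 5 of the 10 genes were then called, between 136 and 4526 of all genes, between 1 and 25 genes of the lists and between 0 and 6 transcripts. The lowest counts came without 3D replicate 1, and for transcripts also without 2D replicate 2 or 3D replicate 2. In limma at an unadjusted p below 0.05 these counts were higher, among the 10 genes and their transcripts and among all genes tested. The last 2 of these ranges, the shares with a culture left out, and the markers under each alternative, were added after the data were seen, and no share changed direction. Itpr1 had a log2 fold change of -0.0071 by its most abundant transcript and between -0.0063 and 0.15 with 1 culture left out, below 0 without 2D replicate 2. The values below 0 lay close to it, and the cause was not tested. Stim1 passed only by its most abundant transcript. Deviations of same-numbered cultures were not correlated across genes (-0.006), which cannot show whether those cultures were prepared together. The replicate block called 4805 genes, 25 genes of the lists and 5 of the 10 genes, beside 4543, 27 and 5 without the block.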
